A study of Homo sapiens with 6 samples.

Results

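The circadian clock genes described here are 10 genes named by a fixed list, found by symbol among the 57500 gene identifiers of the deposited table. They are the activators BMAL1 and CLOCK, the repressors PER1, PER2, PER3, CRY1 and CRY2, the nuclear receptors NR1D1 and NR1D2, and the output transcription factor DBP. All 10 were present, each under 1 Ensembl identifier. Their RNA was read in 6 polyA-selected libraries of HEK293T, a transformed human embryonic kidney line. In 3 libraries, titled mock, the cells were wild type with the treatment given as vector control. In the other 3 the cells had received pcDNA3 carrying a PRMT1 insert, delivered with PolyJet. PRMT1 is the enzyme that adds most of the asymmetric dimethylation to protein arginines. The labels do not state a time after transfection, a step that brings the cells' clocks into a common phase, whether replicates were separate cultures, or what the mock cells were transfected with. The p-values therefore reflect only how far these libraries scatter, possibly for technical reasons, and a change in phase cannot be told apart from a change in level.

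The mammalian clock is a transcriptional feedback loop. BMAL1 and CLOCK pair and bind E-boxes in the PER, CRY, NR1D and DBP genes. PER and CRY proteins accumulate, enter the nucleus and repress that pair. NR1D1 and NR1D2, also called REV-ERB alpha and beta, compete with ROR receptors for sites in BMAL1 and other genes and repress them. DBP and its relatives TEF and HLF activate genes through D-boxes, where NFIL3 represses. The loop runs in nearly every tissue, kidney included, and in unsynchronised cultures single cells keep time out of phase with each other.

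RefSeq promoter windows on GRCh38.p14, from 250 bases before to 50 bases after an annotated start, were available for all 10 genes, as 15 windows in total. These were searched on both strands for the E-box CACGTG, the D-box TTANGTAA, the REV-ERB and ROR core TAGGTCA and the cAMP response element TGACGTCA. None of the 4 motifs overlapped another in these windows. The stretches below are shown because they place the loop's own motifs at the members whose levels are reported. Each runs 5′ to 3′ along the gene's strand, with the motif in capitals.

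PER1, E-box, chr17:8152560-8152589, minus strand: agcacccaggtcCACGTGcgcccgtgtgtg
NR1D2, upstream E-box, chr3:23945954-23945983, plus strand: ggcgggcggggaCACGTGaggccgctcggc
NR1D2, downstream E-box, chr3:23946004-23946033, plus strand: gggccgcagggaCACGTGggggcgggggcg
NR1D2, D-box, chr3:23945916-23945945, plus strand: gtgacgcggcaTTACATAAtgggcgctgag
PER2, D-box, chr2:238288595-238288624, minus strand: cccgctgcggcTTACGTAAccgccgccggc
PER3, D-box, chr1:7784103-7784132, plus strand: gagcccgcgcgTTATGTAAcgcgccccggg
BMAL1, REV-ERB and ROR core, chr11:13277809-13277838, plus strand: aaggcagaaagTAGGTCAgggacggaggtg
CRY2, REV-ERB and ROR core, chr11:45847399-45847428, plus strand: ttgcggcgtcaTAGGTCActgggcgggcta

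An E-box was found in 2 of the 10 genes, PER1 and NR1D2, against 8.77% of the 27305 genes with a window. A D-box was found in 3 of 10, PER2, PER3 and NR1D2, against 2.71% of all genes. The REV-ERB and ROR core was found in 2 of 10, BMAL1 and CRY2, against 2.29%, and the full cAMP response element in 0 of 10 against 2.25%. Relative to the annotated start that defines its window, the E-box of PER1 is at position -173. In 1 of the NR1D2 windows the E-boxes are at -155 and -105 and the D-box at -194. The D-box of NR1D2 matches on the opposite strand, so its capitals show the motif's reverse complement. The D-boxes of PER2 and PER3 are at -3 and -177. The core is at 31 in BMAL1 and at -65 in CRY2. These matches are letters in a short window and say nothing about binding in these cells, and genes without a match here can hold the motif elsewhere.

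PRMT1 itself (ENSG00000126457) matched the labels in every library. The control libraries 1 to 3 held 378, 397 and 368 TPM of it. The PRMT1 libraries 1 to 3 held 71656, 62895 and 84923 TPM, which is 6.29 to 8.49% of all TPM in them. TPM is the transcript level per length scaled to 1000000 per library. The values gave back 18196136 to 23163587 reads for a library. Across 15341 genes tested with limma on log2(TPM + 1), the median log2 fold change was 0.30, which median-of-ratios scaling moved to 0.006. Each tested clock gene is therefore given on both scales. At a Benjamini-Hochberg adjusted p under 0.05, 40.3% of tested genes were higher and 8.64% lower in TPM. After scaling 23.5% were higher and 24.1% lower (3605 and 3692 genes). The control library 3 and the PRMT1 library 2 lay farthest out on the first principal component, which took 69.2% of the variance. All 5 markers of HEK293T were detected in every library, and 3 of them moved with PRMT1. NEFL was lower (192 to 237 TPM in the controls, 153 to 173 TPM with PRMT1, log2 fold change -0.41, adjusted p = 0.0085), as was NEFM (492 to 616 against 288 to 348 TPM, -0.77, adjusted p = 0.00121). EYA1 was higher (2.28 to 3.46 against 4.73 to 5.76 TPM, 0.66, adjusted p = 0.0108). PAX2 at 3.40 to 4.14 TPM and LHX1 at 1.71 to 2.85 TPM overlapped between the groups. The part of these shifts in the results was not tested. Of 8 markers of blood, liver, fibroblast, endothelial and keratinocyte cells, 6 stayed under 1 TPM in every library and CD3E and KRT5 were at 0. COL1A1, a collagen gene of fibroblasts, was at 9.27 to 16.7 TPM. The summed level of the 8 was 14.2 to 19.1 TPM in the controls and 11.8 to 13.3 TPM with PRMT1, with COL1A1 as its largest part and lower in every PRMT1 library, and its part in the results was not tested. RNA per cell and the share of cells that express a gene cannot be told apart in such bulk libraries.

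The clock genes did not move as a block. CRY1, BMAL1, NR1D2, CLOCK and CRY2 were higher in the PRMT1 libraries and PER1 and DBP were lower, while PER2 and NR1D1 missed the threshold. PER3, under 1 TPM in every library, did not enter the test. Of the 9 tested members, 5 rose and 2 fell in TPM, 4 rose and 2 fell after scaling, beside the shares of all genes given above. Their median log2 fold change was 0.63, against 0.30 for all tested genes, and 0.33 against 0.006 after scaling. The values of the groups did not overlap for 9 of the 10 members, 7 of them higher and 2 lower, where the same held for 61.4% of all tested genes. BMAL1 and PER2 each had 1 control library under 1 TPM and passed the filter with 5 libraries. The other 7 tested members reached 1 TPM in all 6.

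**Figure D1:**
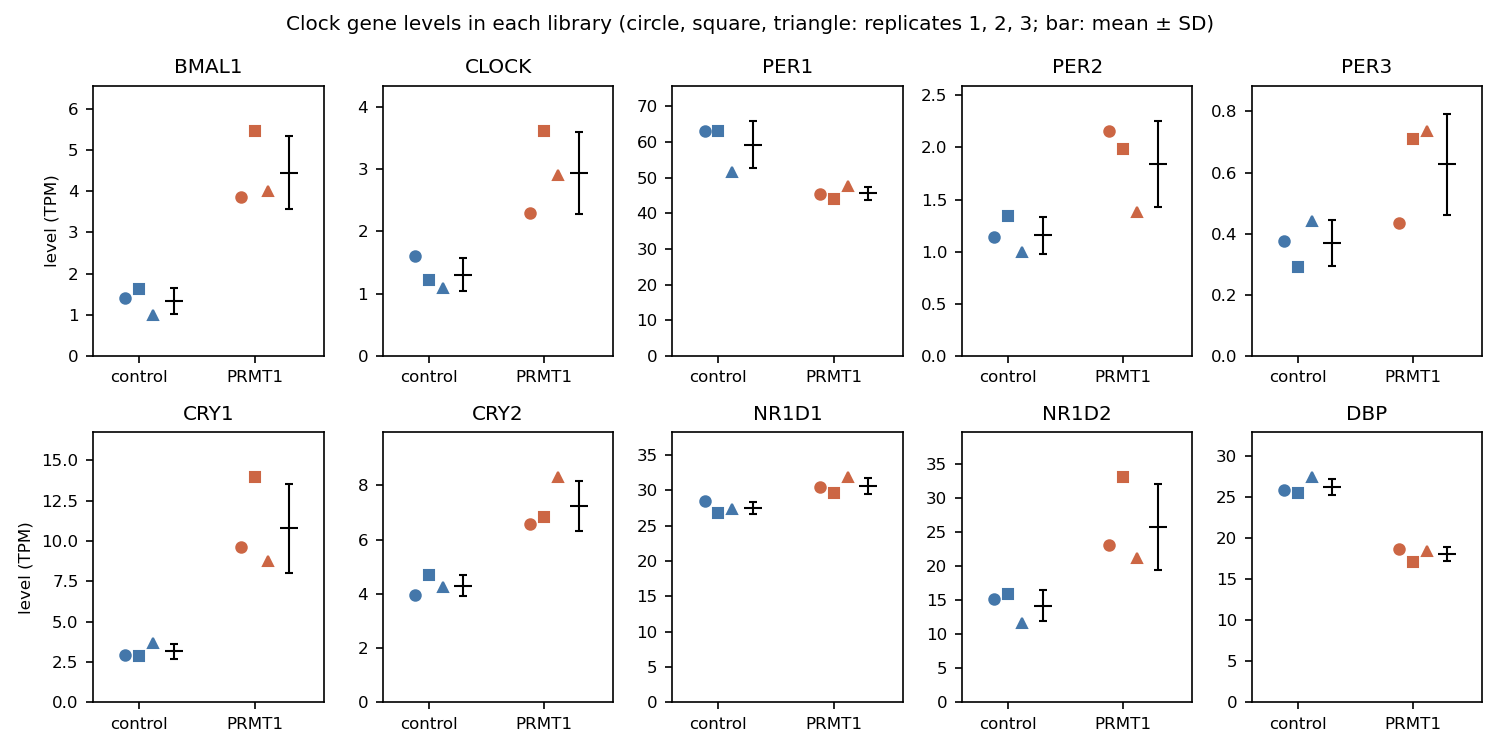
Level of each of the 10 clock genes in TPM (linear axis from 0, a separate scale for each gene) in the 3 control and 3 PRMT1 libraries, with the mean and SD beside the points. The PRMT1 libraries lie above the controls for BMAL1, CLOCK, PER2, CRY1, CRY2, NR1D1 and NR1D2 and below them for PER1 and DBP, and only PER3 overlaps.

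The activator pair was scarce in control cells and higher with PRMT1. BMAL1 (ENSG00000133794, named ARNTL in GENCODE 29, chromosome 11, 13276652 to 13387266, plus strand) encodes the subunit that the loop regulates at the RNA level. Levels were 1.40, 1.62 and 0.99 TPM in control libraries 1 to 3, and 3.87, 5.47 and 4.01 TPM in PRMT1 libraries 1 to 3. Every PRMT1 library exceeded every control library by more than 2-fold, and the PRMT1 library 2 was the highest. The mean went from 1.34 ± 0.32 to 4.45 ± 0.88 TPM (SD, n = 3 each), 3.33-fold, and limma put the log2 fold change at 1.22 (SE 0.18, adjusted p = 0.00138). It was 0.97 after scaling (adjusted p = 0.00164). The values rest on 163 recovered reads over the controls and 561 over the PRMT1 libraries.

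CLOCK (ENSG00000134852, chromosome 4, 55427903 to 55547138, minus strand) encodes the partner of BMAL1. Control levels were 1.60, 1.23 and 1.09 TPM, and PRMT1 levels 2.29, 3.61 and 2.91 TPM. The groups did not overlap, and the PRMT1 library 2 was again the highest. The mean rose from 1.31 ± 0.27 to 2.94 ± 0.66 TPM (SD, n = 3 each), and limma put the log2 fold change at 0.76 (SE 0.18, adjusted p = 0.0104) and at 0.53 after scaling (adjusted p = 0.0263). This call was lost after GC correction (0.26, adjusted p = 0.168) and under quantile normalization (0.36, adjusted p = 0.11). An unnamed antisense gene (ENSG00000272969, chromosome 4, 55547112 to 55547889) starts 26 bases from the CLOCK start on the other strand. It rose too, from a mean of 0.35 to 1.43 TPM (log2 fold change 0.84, adjusted p = 0.0158), but its exons cover only 0.23% of those of CLOCK.

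Of the PER genes, PER1 fell, PER2 missed the threshold and PER3 was too scarce to test. PER1 (ENSG00000179094, chromosome 17, 8140472 to 8156506, minus strand), which also responds quickly to cAMP and glucocorticoid signals, was the most abundant clock gene. Its controls held 62.9, 63.0 and 51.5 TPM and its PRMT1 libraries 45.4, 43.9 and 47.6 TPM. All PRMT1 values were below all control values, and the control library 3 came nearest to them. From 59.2 ± 6.60 the mean fell to 45.6 ± 1.85 TPM (SD, n = 3 each), and limma put the log2 fold change at -0.36 (SE 0.10, adjusted p = 0.0177). The fall was larger after scaling, -0.71 (adjusted p = 0.00102). It missed the threshold once PRMT1 was removed and TPM recomputed (-0.26, adjusted p = 0.0603), and without control replicate 1 or 2 or PRMT1 replicate 1 (adjusted p = 0.0699, 0.0618 and 0.0569), and over all alternatives the adjusted p ran from 7.56e-05 to 0.0699.

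PER2 (ENSG00000132326, chromosome 2, 238244038 to 238290102, minus strand), whose protein is a main scaffold of the repressor complex, held 1.14, 1.34 and 0.99 TPM in the controls. In the PRMT1 libraries it held 2.16, 1.99 and 1.38 TPM. The groups were apart by a narrow margin, since the PRMT1 library 3 was just above the control library 2. Its log2 fold change was 0.39 (95% interval -0.02 to 0.80, limma adjusted p = 0.103), and 0.18 after scaling (adjusted p = 0.404), so neither no change nor a rise of the size of CRY2 lies outside the interval. With array weights it was 0.49 and past the threshold (adjusted p = 0.00769). The values rest on 144 recovered reads in the controls and 239 in the PRMT1 libraries. PER3 (ENSG00000049246, chromosome 1, 7784320 to 7845177, plus strand), a PER paralog with a lesser role in the loop, was the scarcest member. Control levels were 0.37, 0.29 and 0.44 TPM, and PRMT1 levels 0.43, 0.71 and 0.74 TPM, from 54 and 94 recovered reads. The PRMT1 library 1 fell within the range of the controls. With no filter on expression its log2 fold change was 0.25 (limma adjusted p = 0.241).

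Both cryptochrome genes rose in TPM, CRY1 3.41-fold and CRY2 1.68-fold. CRY1 (ENSG00000008405, chromosome 12, 106991364 to 107093829, minus strand) encodes the stronger repressor of the BMAL1 and CLOCK pair. Control levels were 2.93, 2.85 and 3.71 TPM, and PRMT1 levels 9.64, 13.9 and 8.80 TPM. Each PRMT1 library was more than 2-fold above the highest control. The mean went from 3.16 ± 0.47 to 10.8 ± 2.76 TPM (SD, n = 3 each), and limma put the log2 fold change at 1.48 (SE 0.18, adjusted p = 0.000668). After scaling it was 1.18 (adjusted p = 0.00121), and 97.8% of tested genes had a lower fold change in TPM. CRY2 (ENSG00000121671, chromosome 11, 45847118 to 45883248, plus strand), the paralog that also acts early in the repression cycle, had control levels of 3.94, 4.71 and 4.27 TPM, and PRMT1 levels of 6.59, 6.83 and 8.28 TPM. The groups were apart, and the PRMT1 library 3, not 2, was highest. The mean rose from 4.31 ± 0.39 to 7.23 ± 0.92 TPM (log2 fold change 0.63, SE 0.13, limma adjusted p = 0.00558). The CRY2 call was lost after scaling (0.33, adjusted p = 0.0795) and under quantile normalization (0.16, adjusted p = 0.363).

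Of the REV-ERB genes, NR1D2 rose and NR1D1 missed the threshold. NR1D1 (ENSG00000126368, chromosome 17, 40092787 to 40100725, minus strand), whose protein represses BMAL1, held 28.5, 26.8 and 27.3 TPM in the controls. In the PRMT1 libraries it held 30.5, 29.6 and 31.8 TPM. The small gap between the groups gave a log2 fold change of 0.15 (95% interval -0.03 to 0.33, limma adjusted p = 0.146). The sign depended on the scale, with -0.20 after scaling (adjusted p = 0.141), -0.14 under quantile normalization and -0.01 after GC correction. It was 0.26 and past the threshold once PRMT1 was removed and TPM recomputed (adjusted p = 0.0267), and 0.12 and past it with array weights (adjusted p = 0.0401). Exons of THRA on the opposite strand overlap 9.49% of the NR1D1 exons, and the counting strand is not given in the sources used here. THRA, averaged 28.5 TPM among controls and 26.9 TPM with PRMT1. Its log2 fold change was -0.08 (adjusted p = 0.459), and -0.42 after scaling (adjusted p = 0.0105).

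NR1D2 (ENSG00000174738, chromosome 3, 23945260 to 23980618, plus strand), whose promoter windows hold the E-boxes and the D-box printed above, had 15.1, 15.9 and 11.6 TPM in the controls. Its PRMT1 libraries held 23.1, 33.0 and 21.1 TPM. All 3 exceeded the controls, and the PRMT1 library 2 stood well above the other PRMT1 libraries. The mean rose from 14.2 ± 2.25 to 25.8 ± 6.37 TPM (SD, n = 3 each), and limma put the log2 fold change at 0.80 (SE 0.18, adjusted p = 0.00889) and at 0.46 after scaling (adjusted p = 0.0214). Without the control library 3 and the PRMT1 library 2 it was 0.49 (adjusted p = 0.0045), and after GC correction 0.31 (adjusted p = 0.0333).

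DBP (ENSG00000105516, chromosome 19, 48630030 to 48637438, minus strand), a direct output of BMAL1 and CLOCK, fell. Control levels were 25.9, 25.5 and 27.4 TPM, and PRMT1 levels 18.7, 17.1 and 18.5 TPM. The values were tight within each group and far apart between them. From 26.3 ± 0.99 the mean fell to 18.1 ± 0.86 TPM (SD, n = 3 each), and limma put the log2 fold change at -0.51 (SE 0.08, adjusted p = 0.00217). It was -0.86 after scaling (adjusted p = 0.00105), and 4.28% of tested genes had a lower fold change in TPM. Exons of SPHK2 on the opposite strand overlap 10.1% of the DBP exons. SPHK2 moved the other way, from a mean of 3.13 to 6.50 TPM (log2 fold change 0.86, adjusted p = 0.00114).

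Of the other measured genes that overlap a member's exons or start within 1000 bases of a member's start, TMEM165 alone passed 1 TPM. The microRNA gene MIR6883 lies in the PER1 exons and has no value here. The exons of TMEM165 cover 0.65% of those of CLOCK, and it rose from a mean of 5.54 to 9.09 TPM (log2 fold change 0.62, limma adjusted p = 0.0047). UTS2, which overlaps 10.7% of the PER3 exons on the other strand, was listed at 0 in 5 libraries and at 0.0979 TPM in the PRMT1 library 3. SEC1P, a pseudogene that starts 633 bases from DBP, stayed under 1 TPM in every library.

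**Figure D2:**
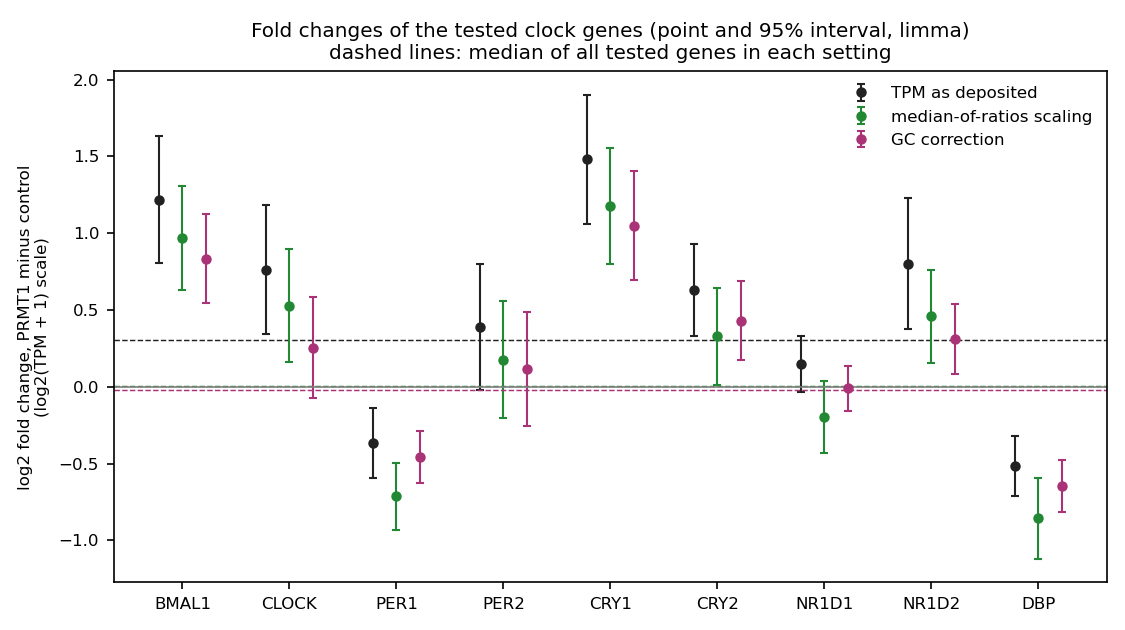
Log2 fold change (PRMT1 minus control, log2(TPM + 1) scale) of the 9 tested clock genes with its 95% interval from limma, in TPM as deposited, after median-of-ratios scaling and after GC correction; dashed lines mark the median of all tested genes. The intervals of CRY1, BMAL1, NR1D2 and CRY2 lie above 0 and those of PER1 and DBP below 0 in all 3. CLOCK lies above 0 in all 3, but its interval after GC correction includes 0. The intervals of PER2 and NR1D1 include 0 in each. These intervals are not adjusted for the number of genes, and CRY2 was not called after scaling.

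The calls of CRY1, BMAL1, NR1D2 and DBP held in every alternative in which the gene was tested, 19, 18, 19 and 19 respectively. Over these the log2 fold change ran from 0.94 to 1.72 for CRY1, from 0.57 to 1.67 for BMAL1, from 0.31 to 0.92 for NR1D2 and from -0.86 to -0.41 for DBP. CRY2 kept its call in 17 of 19, CLOCK in 15 of 18 and PER1 in 15 of 19. In the order of mean levels per length among controls, PER1 stood first (59.2 TPM), then NR1D1 and DBP with overlapping values, then NR1D2, CRY2 and CRY1, each apart from the next. BMAL1, CLOCK and PER2 overlapped each other in that order, at 1.16 to 1.34 TPM, and PER3 was last. With PRMT1, NR1D2 passed DBP and CRY1 passed CRY2, and NR1D1 and NR1D2 now overlapped. BMAL1 and CLOCK, which overlapped in the controls, were apart with PRMT1.

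Ratios between clock genes within 1 library do not depend on how that library is scaled, so they show which members moved relative to each other. A trend with GC content, described below, does not cancel in a ratio of genes that differ in it. Its part in these ratios was not tested. CRY1 stood at 0.73 times CRY2 in the controls (geometric mean) and at 1.47 times CRY2 with PRMT1. The log2 ratio was -0.43, -0.72 and -0.20 in the controls and 0.55, 1.03 and 0.09 with PRMT1, so CRY2 was the more abundant transcript in every control and CRY1 in every PRMT1 library. NR1D1 stood at 21.0 times BMAL1 in the controls and at 6.97 times BMAL1 with PRMT1, with log2 ratios of 4.34, 4.04 and 4.79 against 2.98, 2.44 and 2.99. This was the largest shift of the 8 ratios, -1.59 on the log2 scale.

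The repressors also shifted against each other and against BMAL1. PER1 was 51.3 times PER2 in the controls and 25.2 times PER2 with PRMT1, a log2 shift of -1.02. NR1D1 went from 1.95 to 1.21 times NR1D2 (log2 shift -0.69), and in the PRMT1 library 2 NR1D2 exceeded NR1D1. PER2 went from 0.88 to 0.41 times BMAL1 (log2 shift -1.09), and BMAL1 from 1.02 to 1.52 times CLOCK (0.58). The ratio of DBP to NFIL3, the activator and the repressor of D-boxes, was 0.40 in the controls and 0.43 with PRMT1, with overlapping values (log2 shift 0.10). PER3 to PER2 overlapped as well (0.09). For each of the 6 ratios whose groups did not overlap, an exact two-sided permutation test gave p = 0.1, the smallest that 3 against 3 values allow, and 0.133 after Benjamini-Hochberg adjustment over the 8 ratios, so none could pass the threshold. For DBP to NFIL3 and PER3 to PER2 the exact p was 0.9 and 0.8.

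**Figure D3:**
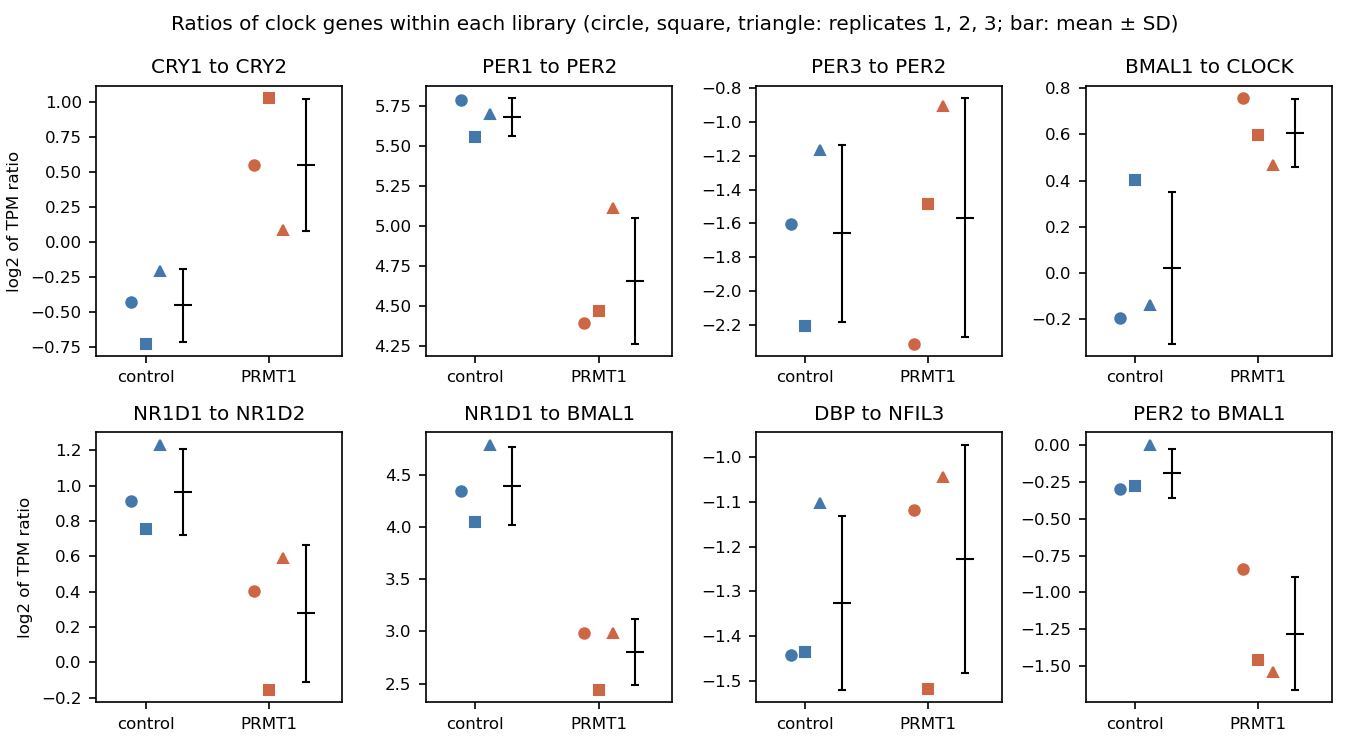
Log2 of the TPM ratio of 8 pairs of clock genes in each library, with mean and SD beside the points (a separate scale for each pair). The groups are apart for 6 pairs, upward for CRY1 to CRY2 and BMAL1 to CLOCK and downward for PER1 to PER2, NR1D1 to NR1D2, NR1D1 to BMAL1 and PER2 to BMAL1.

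The fold changes of the members tended to be lower where the GC content of their transcripts was higher, with exceptions. The transcripts of CLOCK, NR1D2, CRY1 and BMAL1 had GC contents of 39.6, 40.6, 43.4 and 46.0%. These 4 genes had the largest rises, though not in the order of their GC content. PER1 and DBP, the genes that fell, had 62.6 and 60.8%. CRY2 rose with 57.4%, while PER2 with 53.2% and NR1D1 with 59.5% missed the threshold. Over the 9 tested members, which share libraries and depth, the Spearman correlation of GC content and log2 fold change was -0.82 (Pearson's r -0.81). Over 15276 tested genes it was -0.25, and the median log2 fold change ran from 0.51 in the decile of lowest GC content to 0.01 in that of highest. CLOCK at 0.76 compares with 0.51 in its own decile, NR1D2 at 0.80 with 0.45, CRY1 at 1.48 with 0.40 and BMAL1 at 1.22 with 0.35. CRY2 at 0.63 compares with 0.19, PER2 at 0.39 with 0.24 and PER1 at -0.36 with 0.01. NR1D1 at 0.15 compares with 0.14. DBP at -0.51 lies in that same decile.

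A correction of each library for this trend kept the order of the members' fold changes, except that CRY2 moved above NR1D2 and CLOCK. CRY1 and BMAL1 were then at 1.05 and 0.83 (limma adjusted p = 0.00147 and 0.00166), CRY2 at 0.43 (adjusted p = 0.0152), PER1 at -0.46 (adjusted p = 0.00208) and DBP at -0.65 (adjusted p = 0.00057). The correction also recentred each library, with a median log2 fold change of -0.02 over all tested genes. Its values therefore compare with those after scaling. These were 1.18 for CRY1, 0.97 for BMAL1, 0.33 for CRY2, -0.71 for PER1 and -0.86 for DBP. Of the 9 tested members 4 rose and 2 fell after the correction, where 23.4% of all genes rose and 25.4% fell. The Spearman correlation over the 9 members was then -0.67. In the PRMT1 library 2, CRY1, BMAL1, CLOCK and NR1D2 each had their highest value of the PRMT1 group and PER1, NR1D1 and DBP their lowest. The control library 3 held the lowest control value of PER1, PER2, BMAL1, CLOCK and NR1D2. What base composition contributed to the differences beyond this correction was not tested.

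**Figure D4:**
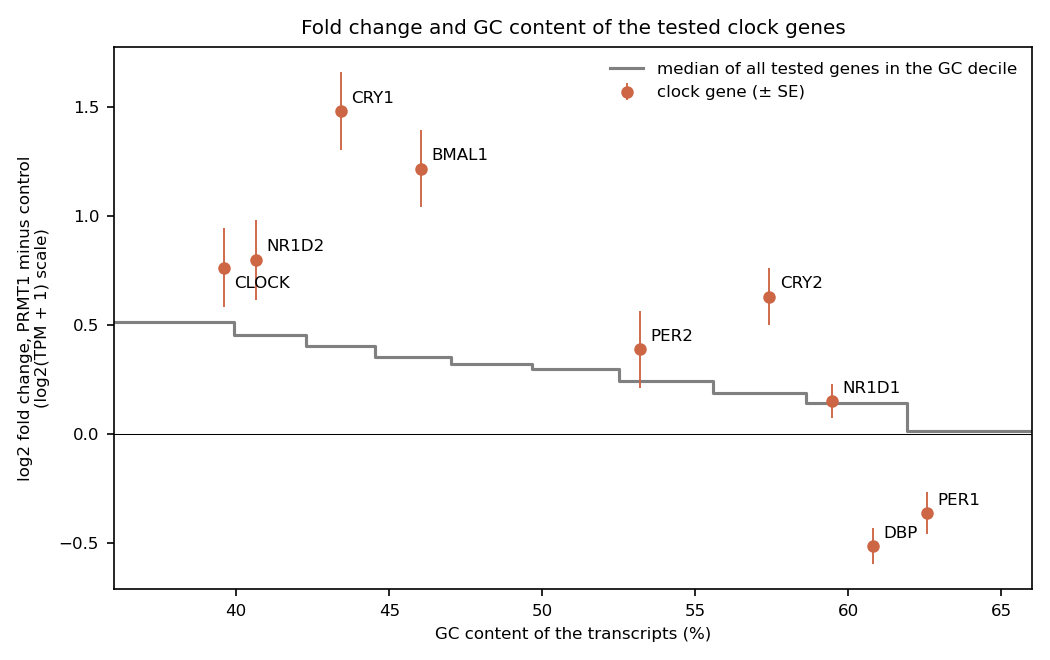
GC content of the transcripts of the 9 tested clock genes (x axis, percent) against their log2 fold change with SE (y axis), with the median of all tested genes in each GC decile as a grey line. CRY1 and BMAL1 lie farthest above the line, PER1 and DBP below it, and NR1D1 on it.

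Beyond the 10 genes, 54 further clock pathway genes in 8 roles were counted, of which 52 were tested. In TPM 28 rose, 4 fell and 20 missed the threshold, beside 40.3% of all tested genes called higher and 8.64% lower. After scaling 18 rose and 15 fell, beside 23.5% and 24.1% of all genes. Each role's counts below are to be read against the same shares, and no role was tested against other genes. Their median log2 fold change was 0.42, against 0.30 for all tested genes, and 0.08 after scaling. The genes below are the largest calls of each role. NPAS2, BMAL2, RORA, RORB, CIART, CSNK1D, NONO and TIMELESS fall outside that rule and were chosen after their values were seen.

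Neither the relatives of the activators nor the tested ROR receptors passed the threshold in TPM or after scaling. NPAS2, which can stand in for CLOCK, and BMAL2, the BMAL1 paralog, had log2 fold changes of 0.02 (95% interval -0.28 to 0.33) and 0.18 (-0.12 to 0.47). RORA and RORB, which activate BMAL1 at the sites REV-ERB proteins repress, had 0.07 (-0.30 to 0.44) and -0.08 (-0.44 to 0.28). After scaling all 4 were below 0, and after GC correction BMAL2 (-0.30, limma adjusted p = 0.0344) and RORB (-0.59, adjusted p = 0.016) were called lower. Of the 3 E-box repressors, BHLHE41 rose from 5.77 ± 0.62 to 8.37 ± 0.41 TPM (SD, n = 3 each, log2 fold change 0.47, limma adjusted p = 0.0113) and BHLHE40 from 92.4 ± 2.58 to 108 ± 5.22 TPM (0.22, adjusted p = 0.0299). CIART, at 0.27, missed the threshold. Neither call held after scaling (0.16 and -0.13).

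The D-box factors went in different directions. TEF, a DBP paralog, had control levels of 6.10, 6.40 and 5.47 TPM, and PRMT1 levels of 14.6, 15.1 and 14.6 TPM. All PRMT1 libraries were more than 2-fold above all controls, and limma put the log2 fold change at 1.18 (SE 0.10, adjusted p = 0.000184) that was 0.85 after scaling. NFIL3, the D-box repressor, had control levels of 70.5, 69.0 and 58.8 TPM, and PRMT1 levels of 40.6, 49.0 and 38.2 TPM. It fell by 0.63 on the log2 scale (adjusted p = 0.00382) and by 0.98 after scaling. HLF, the other DBP paralog, was below the filter, with control levels of 0.29, 0.48 and 0.36 TPM and PRMT1 levels of 0.97, 1.69 and 1.01 TPM. DBP and NFIL3 thus lay lower, and TEF and HLF higher, in every PRMT1 library than in any control.

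Among 13 kinases and phosphatases that act on clock proteins, 6 rose and 3 fell, where 40.3% and 8.64% of all genes did. After scaling 3 rose and 6 fell, where 23.5% and 24.1% of all genes did. The casein kinase 1 genes, which phosphorylate PER proteins and mark them for turnover, moved in both directions. CSNK1A1 rose from 27.6 ± 9.25 to 49.7 ± 4.16 TPM (SD, n = 3 each, log2 fold change 0.88, limma adjusted p = 0.017), with the control library 3 at 17.1 TPM against 31.4 and 34.4 TPM in the other controls. CSNK1E fell from 325 ± 17.2 to 275 ± 3.73 TPM (-0.24, adjusted p = 0.0153). CSNK1D rose by 0.67 (adjusted p = 0.000405). CSNK1D and CSNK1E are close paralogs, and whether the counting could split reads between them was not tested. The AMPK subunit genes PRKAA2 and PRKAA1, whose kinase destabilises CRY proteins, rose by 0.77 and 0.74. The casein kinase 2 subunit gene CSNK2B and the phosphatase gene PPP5C fell by 0.27 and 0.22. The rises of CSNK1A1, PRKAA1 and PRKAA2 were not called after GC correction (adjusted p = 0.122, 0.0613 and 0.12), and that of CSNK1A1 was not called after scaling (adjusted p = 0.0537).

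Of 13 ubiquitin ligase and protease genes, 8 rose and 0 fell in TPM (all genes 40.3% and 8.64%), and 7 rose and 2 fell after scaling (all genes 23.5% and 24.1%). BTRC and FBXW11, the paralogous F-box genes whose proteins recognise phosphorylated PER, rose from 4.46 ± 0.38 to 10.6 ± 0.60 TPM and from 27.1 ± 6.66 to 50.5 ± 5.44 TPM (SD, n = 3 each). Their log2 fold changes were 1.09 and 0.90 (limma adjusted p = 0.000325 and 0.00528). USP7, a protease that stabilises CRY proteins, rose by 0.91 (adjusted p = 0.000416).

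Of 16 cofactor and chromatin partner genes, 10 rose and 0 fell in TPM (all genes 40.3% and 8.64%), and 7 rose and 6 fell after scaling (all genes 23.5% and 24.1%). SFPQ, which is part of the PER complex, rose from 44.9 ± 0.98 to 103 ± 5.70 TPM (SD, n = 3 each, log2 fold change 1.18, limma adjusted p = 6.99e-05), while its partner NONO had -0.04 (95% interval -0.30 to 0.21). TIPIN rose from 23.9 ± 0.45 to 50.2 ± 3.56 TPM (1.04, adjusted p = 0.000146), and its partner TIMELESS had -0.02 (-0.32 to 0.28). After scaling NONO and TIMELESS were called lower (-0.40 and -0.37, adjusted p = 0.00794 and 0.0129), while SFPQ and TIPIN were still called higher (0.83 and 0.69). SIRT1, a deacetylase that acts on BMAL1 and PER2, rose by 1.36 (adjusted p = 0.0104). Its PRMT1 libraries were uneven, at 20.4, 46.2 and 52.4 TPM against 14.8, 15.6 and 11.2 TPM in the controls, and the call was lost after GC correction (0.84, adjusted p = 0.0622). WEE1, a cell cycle kinase gene with E-box control, rose by 0.70 (adjusted p = 0.0163), but missed the threshold after scaling (0.37, adjusted p = 0.0535).

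**Figure D5:**
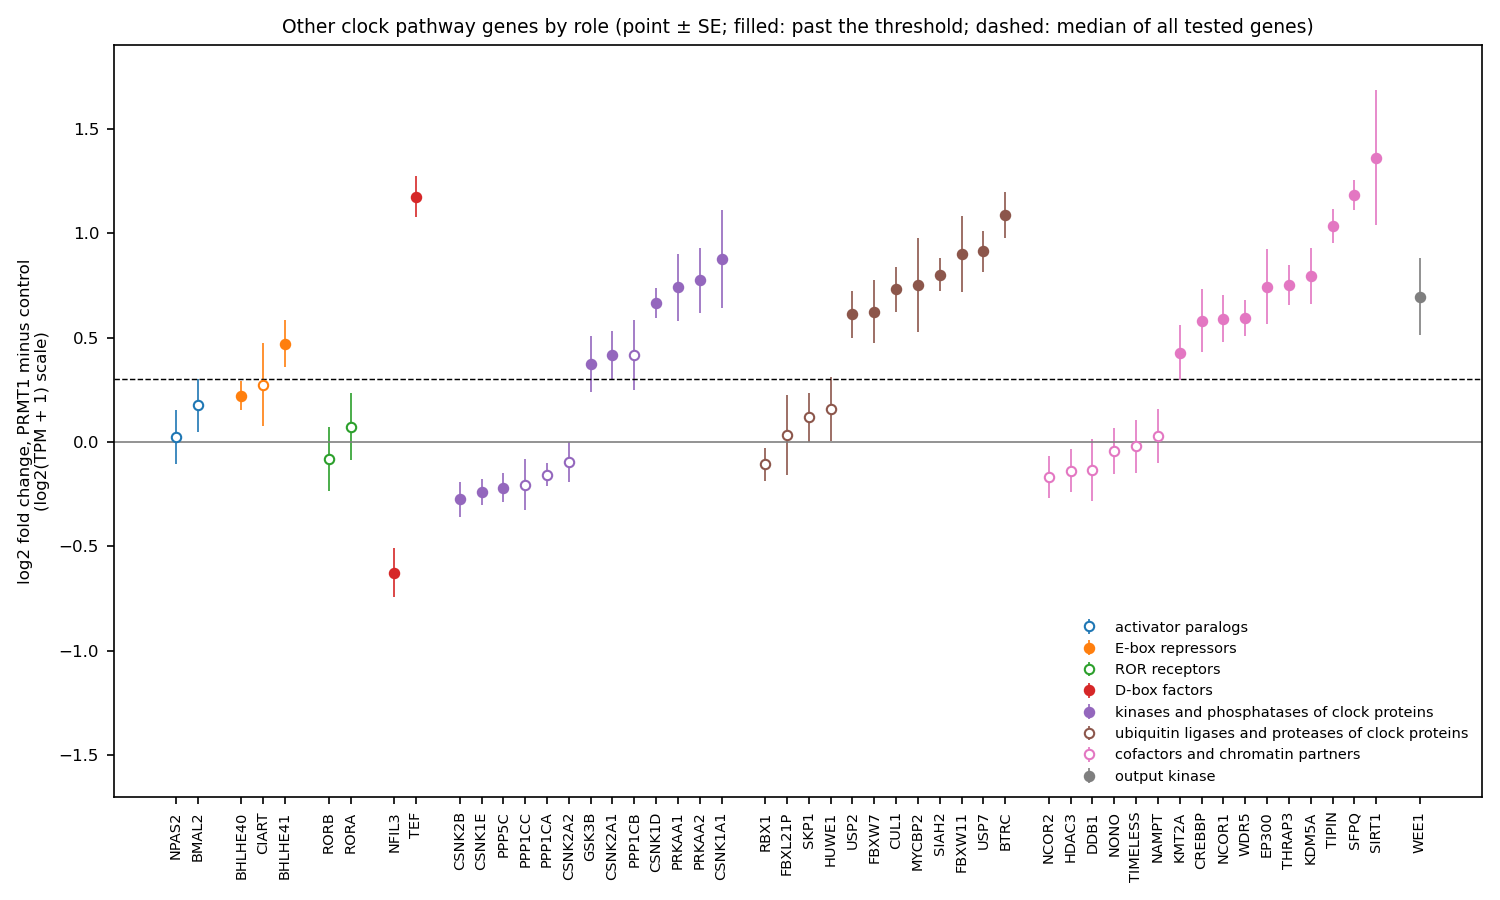
Log2 fold change (PRMT1 minus control, log2(TPM + 1) scale) with SE of the tested genes of the further clock pathway list, grouped by role (1 is not drawn); filled points passed the threshold in TPM and the dashed line is the median of all tested genes, 0.30. TEF, BTRC, SFPQ, TIPIN and SIRT1 lie above 1 and NFIL3 is the lowest point.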

How the data were processed

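The deposited table holds TPM per Ensembl gene and library, scaled by the authors to 1000000 per column. Per the submitters' processing notes, the tools were featureCounts, Subread 1.5.2, STAR 2.5.2b and Trimmomatic 0.36 and the build GRCh38, with no role or order. No source used here gives the annotation, the strand setting or the TPM formula. All 6 columns matched 1 sample title each.

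Of 57500 identifiers, 56410 were found in the table of gene names. Coordinates, exonic lengths and transcript GC content came from GENCODE 29. Promoter windows came from RefSeq (GRCh38.p14). TPM times exonic length came in whole steps of a size fixed for each library (95.5 to 95.9% of values under 50 reads within 0.05 of a whole read), which gave the recovered reads. 3 reads in a 1 kb gene equal 0.459 to 0.526 TPM. Replicates differed beyond counting noise (chi-square per degree of freedom 2.70 to 23.2).

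A gene was tested when 3 or more libraries reached 1 TPM. limma 3.58.1 under R 4.3.3 (lmFit, then eBayes with trend) was fitted to log2(TPM + 1) by group alone, with Benjamini-Hochberg adjustment over every tested gene. This scale understates the change of low genes. The fit was tested on simulated data. Ratios used SciPy 1.17.1. GC correction subtracted a lowess curve (span 0.5) of each library's deviation on GC content, which also recentres the library. Pathway genes were named when among the 3 largest called rises or falls of a role, or below the filter; genes that overlap a member or start within 1000 bases of it were named too. The members and lists were chosen with earlier results of these data known. Alternatives covered pseudocount, filter, scaling, trend, weights, GC, block and left-out libraries. Values of some list genes are not reported here.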

Additional observations from a re-analysis of the deposited data

How the results depend on the processing

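Over all genes, no single left-out library moved the counts of calls by over 1.5 times, while other scales did. The higher calls went from 6190 to 3605 after median-of-ratios scaling, 3109 under quantile normalization, 3571 after GC correction and 3270 after GC correction with the replicate block. The lower calls went from 1325 to 3692, 2979, 3880 and 3692 in the same settings, to 880 once PRMT1 was removed and TPM recomputed, 2838 with array weights and 2115 without the 2 libraries that stand apart. Of the clock members, 3 rather than 5 were higher with the filter at 5 TPM, where 6 were tested, and 3 under quantile normalization. With that filter 4546 of all 10290 tested genes were higher. The lower members were 1 with PRMT1 removed, and 1 to 2 when single libraries were left out, as the call of PER1 was lost. The log2 fold change of NR1D1 turned to -0.20 after scaling, -0.14 under quantile normalization and -0.00859 after GC correction with and without the block.

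Of the other pathway genes, 18, 15, 15 and 15 were higher after scaling, quantile normalization, GC correction and GC correction with the block, in place of 28. The lower ones, 4 in TPM, were 15 after scaling, 17 and 16 after GC correction without and with the block, 12 with array weights, 12 without the 2 libraries that stand apart, 1 with PRMT1 removed, 1 without the variance trend, and 1 to 9 when single libraries were left out, with 9 without control replicate 3. These counts are to be read beside all tested genes, of which 23.5% were higher and 24.1% lower after scaling. After GC correction 23.4% were higher and 25.4% lower. Of 15341 genes, 3109 were higher under quantile normalization. The lower ones were 2838 with array weights, 2115 without the 2 libraries that stand apart and 1109 without the variance trend. With single libraries left out 935 to 1520 were lower. Apart from the construction of each setting, the cause of the changes in these counts was not tested. Replicate numbers are shared between the groups, and the labels do not say whether same-numbered libraries pair. Same-numbered libraries deviated with correlations of -0.03, 0.06 and 0.02, and different-numbered ones with correlations from -0.08 to 0.07. So few libraries cannot decide whether they share a culture or a batch. With the replicate block 6275 genes were higher and 1314 lower, 5 clock members were higher and 2 lower, and 2 of the other pathway genes were lower. Without any 1 library all 8 ratios moved by less than 1 SD, but leaving out 1 of 3 values cannot move a mean by more. Of the 8 ratios 7 kept their direction. Those whose groups do not overlap could not have turned, so only PER3 to PER2 and DBP to NFIL3 were open to a change. The exception was PER3 to PER2, 0.09 with all libraries, which turned to -0.18 without control replicate 2 and -0.24 without PRMT1 replicate 3. PER2, PER3, BMAL1 and CLOCK rest on few reads, which limits what can be said of small changes in them.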

Other observations

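The summed level of the 10 clock genes was 143.8, 143.2 and 129.4 TPM in the control libraries and 142.6, 156.2 and 145.2 TPM in the PRMT1 libraries, with overlapping ranges, while its make-up differed. PER1 took 42.5 ± 2.34% of the sum (SD, n = 3) in the controls and 30.9 ± 2.47% with PRMT1, and DBP 19.0 ± 1.88% and 12.3 ± 1.15%. NR1D2 took 10.2 ± 1.07% and 17.3 ± 3.42%, CRY1 1.99 to 2.87% and 6.06 to 8.93% (ranges), and BMAL1 0.96 ± 0.18% and 2.99 ± 0.44%. The share of NR1D1 was 19.9 ± 1.22% and 20.8 ± 1.58%. Each share moves when any other member moves, so these shares are not independent of each other. They were noticed in the data and were not tested.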
